A study of Homo sapiens with 8 samples.

Results

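The myeloid master transcription factors described here are 9 genes, CEBPA, CEBPB, CEBPD, CEBPE, SPI1, GFI1, IRF8, RUNX1 and MYB, taken by their symbols from the 37526 gene names listed for all 8 RNA-seq libraries. The study asked what the loss of the histone demethylase KDM3B does to acute promyelocytic leukemia (APL) cells and to their differentiation by all-trans retinoic acid (ATRA). RNA was sequenced in 4 groups of 2 libraries from NB4 cells, a human line derived from APL and bearing its PML/RARα fusion. Scramble cells were stably transduced with the control lentiviral vector (pLVX-shRNA2-puro), which the labels call an empty vector and the study's methods a scrambled shRNA, and were not treated. The shKDM3B cells carried an shRNA against KDM3B in that vector and were not treated either. The scramble+ATRA and shKDM3B+ATRA cells were the same kinds of cells given ATRA for 24 h or 48 h, at 1 µM per the labels and 1 mM as the text of the study's methods prints it, and the labels do not say which time each library had. All 4 groups come from 1 cell line, the labels do not name which KDM3B hairpin was sequenced, and nothing says that the replicates were separate transductions or cultures, so every p-value measures only the spread between these libraries.

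Granulocyte and monocyte fate is set by a small network of DNA-binding proteins. PU.1, the product of SPI1, and the C/EBP proteins switch on the receptors, granule proteins and enzymes of mature myeloid cells, while MYB keeps progenitors dividing and immature. GFI1 and IRF8 pull the same progenitors towards granulocytes and towards monocytes, respectively. In APL, the PML/RARα fusion represses retinoic acid target genes and interferes with C/EBP and PU.1 activity, and pharmacological ATRA reverses that repression and drives the promyelocytes towards neutrophils.

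Each library held between 9708739 and 33017787 read pairs counted on genes. KDM3B itself was lower in the shKDM3B libraries, at 76.3 and 86.2 CPM (counts relative to library size, here scaled by the trimmed mean of M-values, TMM) against 187 and 188 in scramble, and at 52.5 and 57.4 in shKDM3B+ATRA against 196 and 121 in scramble+ATRA. Reads outside annotated genes made up between 8.49% and 9.62% of the pairs in the 4 untreated libraries and in scramble+ATRA replicate 1, but between 50.0% and 51.4% in scramble+ATRA replicate 2 and both shKDM3B+ATRA libraries. For the members and the list genes named in the knockdown comparison with ATRA, values from libraries of one kind are given below as well. Of 6 promyelocyte markers, MPO, CTSG and CD33 carried nearly all of the signal, whereas the defining protease gene ELANE had between 0 and 7 counts in each of the 8 libraries. The monocyte markers CD163 and MSR1, the erythroid markers HBB and HBA1 and the B cell markers MS4A1 and PAX5 were at or near 0 in every group.

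The promoters of 4 of the 7 members that changed with ATRA are shown as examples, CEBPB and CEBPE, which rose, and CEBPA and GFI1, which fell. Promoter sequences from RefSeq (GRCh38.p14) matched 7 of the 9 members in 11 windows, and the 250 bases before each start site were searched on both strands. The letters searched were TTGCNNAA for C/EBP, GAGGAA for PU.1, AGGTCA for a retinoic acid receptor half-site, TGTGGT for RUNX1 and AACNG for MYB. In the sequences below, read 5′ to 3′ on the strand of the gene, capitals mark matches to the first 4 of these. The windows are chr20:50190333-50190582 on the plus strand for CEBPB, and, on the minus strand, chr14:23119256-23119505 for CEBPE, chr19:33302535-33302784 for CEBPA, chr1:92486926-92487175 for the distal start of GFI1 and chr1:92486100-92486349 for a start inside the GFI1 gene. The CEBPE start also lies inside the annotated gene, and the CEBPB start lies upstream of the annotated one.
CEBPB: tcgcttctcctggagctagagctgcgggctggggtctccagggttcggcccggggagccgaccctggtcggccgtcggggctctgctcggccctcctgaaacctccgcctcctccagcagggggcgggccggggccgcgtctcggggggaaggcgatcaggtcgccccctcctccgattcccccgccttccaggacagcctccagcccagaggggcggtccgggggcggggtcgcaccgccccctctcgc
CEBPE: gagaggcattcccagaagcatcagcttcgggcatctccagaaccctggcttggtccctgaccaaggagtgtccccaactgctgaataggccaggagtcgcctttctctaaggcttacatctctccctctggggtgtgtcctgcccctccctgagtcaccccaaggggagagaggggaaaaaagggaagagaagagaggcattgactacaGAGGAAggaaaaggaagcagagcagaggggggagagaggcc
CEBPA: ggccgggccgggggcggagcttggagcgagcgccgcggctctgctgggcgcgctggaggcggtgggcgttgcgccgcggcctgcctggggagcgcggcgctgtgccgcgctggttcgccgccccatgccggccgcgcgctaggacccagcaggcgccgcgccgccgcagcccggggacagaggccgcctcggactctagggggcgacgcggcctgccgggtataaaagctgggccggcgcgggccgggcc
GFI1 distal: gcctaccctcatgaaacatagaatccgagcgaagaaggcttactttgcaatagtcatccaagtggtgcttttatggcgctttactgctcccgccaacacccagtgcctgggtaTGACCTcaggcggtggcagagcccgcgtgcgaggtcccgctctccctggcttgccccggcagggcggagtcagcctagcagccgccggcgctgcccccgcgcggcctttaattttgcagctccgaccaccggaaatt
GFI1 internal: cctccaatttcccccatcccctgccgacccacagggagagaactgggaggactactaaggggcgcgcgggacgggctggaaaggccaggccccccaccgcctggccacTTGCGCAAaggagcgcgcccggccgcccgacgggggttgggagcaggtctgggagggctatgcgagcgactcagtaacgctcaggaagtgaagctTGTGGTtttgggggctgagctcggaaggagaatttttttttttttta
The CEBPE window held 1 PU.1 match, 41 bases before the start, while the CEBPB and CEBPA windows held none of the capitalised motifs. The internal GFI1 window held 1 C/EBP match at 142 bases and 1 RUNX1 match at 47 bases before its start, and the distal GFI1 window held 1 half-site, on the opposite strand, at 137 bases. No match overlapped another in these windows. Of the first 4 motifs, the 6 windows not shown held 1 PU.1 match at 30 bases for a further GFI1 start and 1 at 44 bases for RUNX1, and 1 RUNX1 match at 134 bases and 1 half-site at 182 bases in the 2 IRF8 windows, while a second CEBPB window, at the annotated gene start, and the MYB window held none. The short MYB motif was matched at 175 bases in the CEBPE window and at 210 bases in the internal GFI1 window, and, among the windows not shown, 2 times in that of CEBPB, 1 time in that of GFI1, 4 and 3 times in those of IRF8 and 1 time in that of MYB. Such matches are common: of 35116 promoter windows of this length, 9.05% held TTGCNNAA, 23.6% GAGGAA, 12.1% AGGTCA, 11% TGTGGT and 70.6% AACNG.

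In scramble cells the members differed widely in level, compared here as TMM-scaled CPM per kilobase of exon (mean ± SD, n = 2; exon lengths from GENCODE v44 on hg38). SPI1 (chr11:47354860-47378547), the gene of the ETS factor PU.1, was highest at 76.4 ± 11.7 CPM per kb. CEBPA (chr19:33299934-33302534), whose product opens granulocyte commitment, stood at 73.0 ± 15.4, and MYB (chr6:135181308-135219173) at 65.4 ± 19.2. CEBPD (chr8:47736913-47738164), an inflammation-inducible family member, followed at 40.3 ± 19.9. The late granulocytic factor CEBPE (chr14:23117036-23120256) was at 35.6 ± 9.26 and the zinc finger repressor GFI1 (chr1:92473043-92486925) at 31.0 ± 0.257. The ranges of neighbours overlapped all the way from SPI1 down to GFI1, so this part of the order is not resolved. RUNX1 (chr21:34787801-36004667), the core binding factor subunit needed for blood stem cell formation, stood clearly below at 11.8 ± 0.0342. CEBPB (chr20:50190830-50192668), the family member tied to emergency granulopoiesis, was lower at 9.14 ± 0.0733. IRF8 (chr16:85899116-85922606), the interferon regulatory factor of the monocyte lineage, was barely expressed at 0.427 ± 0.0746.

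The order was different in the other groups. With ATRA, CEBPE and SPI1 headed the scramble cells at 216 ± 36.7 and 196 ± 66.4 CPM per kb, with overlapping ranges, and CEBPB came next at 82.0 ± 24.9. MYB led the untreated shKDM3B cells at 109 ± 13.4 CPM per kb, above CEBPA at 76.4 ± 3.74. In shKDM3B+ATRA cells CEBPE stood at 154 ± 10.8, SPI1 at 118 ± 12.2 and MYB at 67.4 ± 2.55, in that order, and none of these ranges overlapped its neighbour. RUNX1 was next to last and IRF8 last in both ATRA-treated groups.

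**Figure D1:**
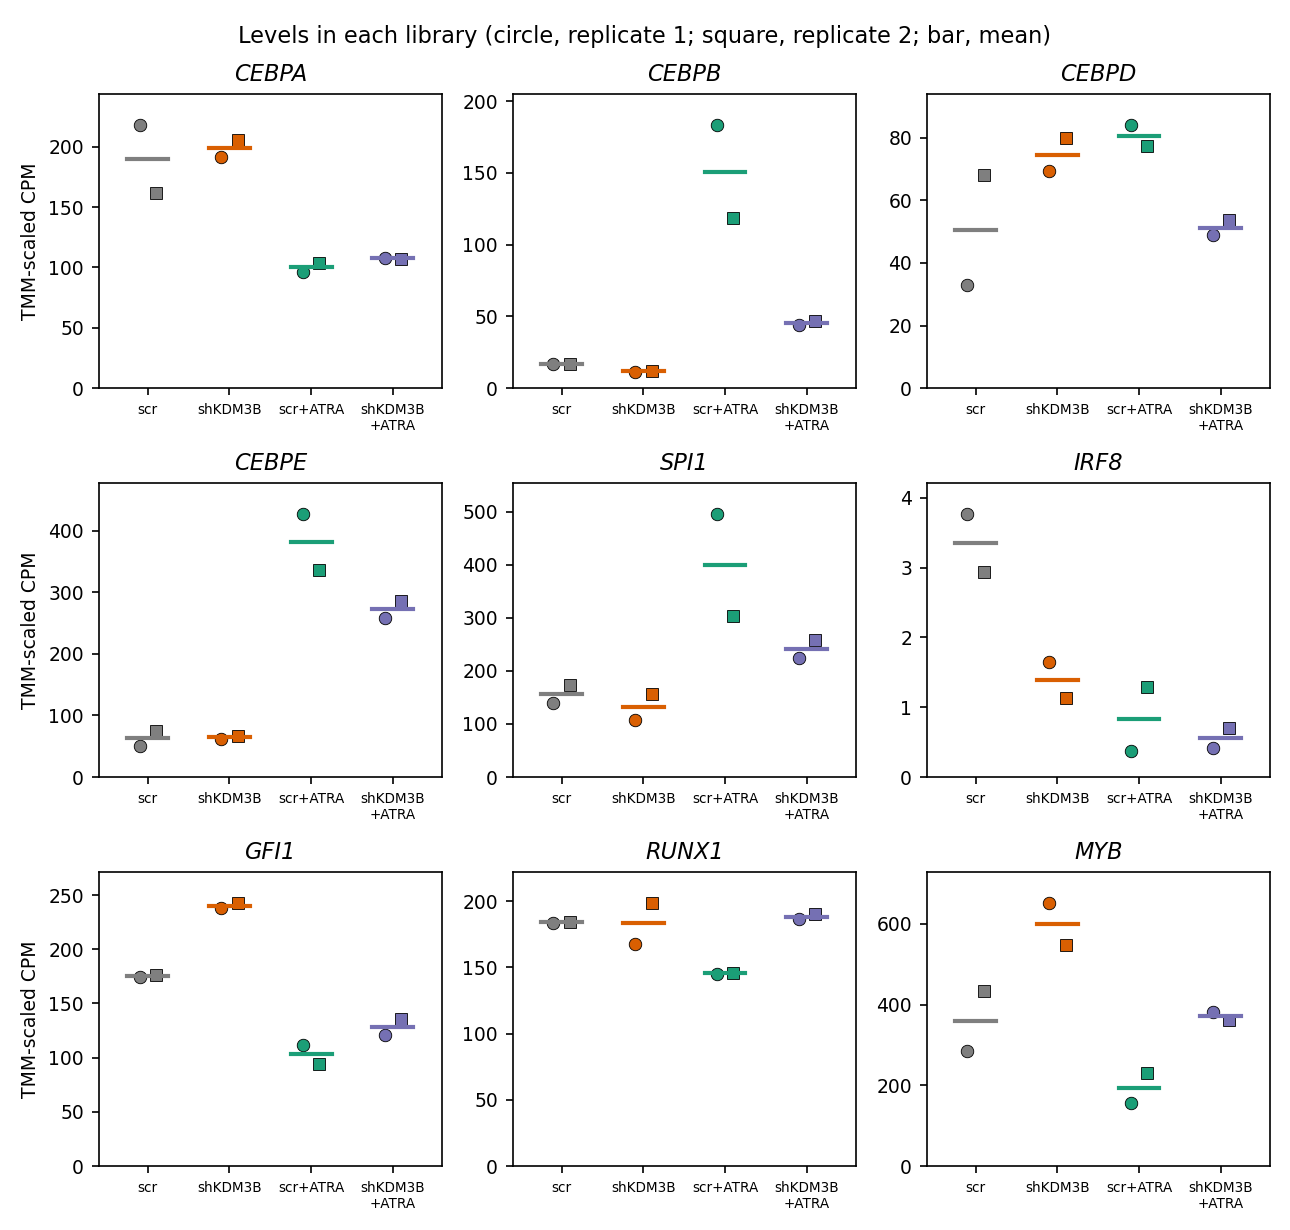
TMM-scaled CPM of the 9 genes (vertical axes, from 0, scaled per gene) in the 4 groups, with a circle for replicate 1, a square for replicate 2 and a bar for the mean (scr, scramble). CEBPB, CEBPE and SPI1 sit highest in scramble+ATRA, MYB and GFI1 highest in untreated shKDM3B, and IRF8 stays below 4 CPM throughout.

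The comparison of scramble+ATRA with scramble showed the response of the network to ATRA. CEBPB, CEBPE and SPI1 rose and CEBPA, GFI1, IRF8 and MYB fell, so that 7 of the 9 members passed the thresholds of an unadjusted P-value under 0.05 and a 1.5-fold change, against 25.9% of the 12429 genes tested (15.0% higher, 10.8% lower, or 1866 and 1347 genes, but 1617 and 1688 when scaled by library size alone). CEBPD and RUNX1 did not pass. The levels of all 9 members did not overlap between the 2 groups, which held for 57.4% of all genes tested. In these bulk libraries, fewer cells of a type and less RNA per cell cannot be told apart.

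CEBPB showed the widest change among the members. Its level was 16.7 and 16.9 CPM in the scramble libraries and 183 and 118 CPM in the scramble+ATRA libraries, replicate 1 first. Both treated libraries lay far above both controls, and the rise was 9.17-fold, or 3.20 ± 0.27 on the log2 scale (± SE; edgeR quasi-likelihood test, adjusted p = 6.9e-04). CEBPE went from 51.2 and 74.3 CPM to 427 and 335 CPM, a 6.21-fold rise (log2 2.64 ± 0.27, edgeR adjusted p = 0.0014). These 2 rises were called with any 1 of the 4 libraries left out, within 2.85 to 3.45 for CEBPB and 2.36 to 2.92 for CEBPE. The CEBPB counts come with a caveat of annotation: 12.6% of its exon bases lie opposite exons of CEBPB-AS1, and the sources used here do not say whether counting used the strand.

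The remaining C/EBP genes behaved otherwise. CEBPA stood at 218 and 162 CPM in scramble and at 96.4 and 104 CPM in scramble+ATRA, so both treated libraries were below both controls. The fall was 0.89 on the log2 scale (SE 0.23, edgeR adjusted p = 0.047), and it missed the threshold without scramble replicate 1 (-0.69, unadjusted P = 0.075). Of the CEBPA exon bases, 43.9% lie opposite exons of long non-coding RNAs. CEBPD read 32.8 and 68.1 CPM in scramble and 84.1 and 77.3 CPM with ATRA. The 2 control libraries differed from each other more than the second of them differed from the treated ones, and the log2 difference of 0.71 ± 0.34 did not pass (edgeR unadjusted P = 0.075). Without scramble replicate 2 it was 1.32, and without either treated library it passed as well, at 0.65 and 0.74.

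SPI1 rose from 139 and 173 CPM to 495 and 304 CPM. Both treated libraries were above both controls but far from each other, and the change was 2.62-fold (log2 1.39 ± 0.28, edgeR adjusted p = 0.019). It was 1.00 without scramble+ATRA replicate 1 and 1.67 without replicate 2, and it missed the threshold without scramble replicate 1 (1.21, unadjusted P = 0.063). IRF8, by contrast, was rare: its counts were 75 and 70 in scramble and 6 and 14 in scramble+ATRA, or 3.77 and 2.94 CPM against 0.368 and 1.29 CPM. It fell by 2.03 on the log2 scale (SE 0.63, edgeR adjusted p = 0.084). That change was -1.33 without scramble+ATRA replicate 1 and -3.16 without replicate 2, and it was not called without scramble replicate 1 (-1.83, unadjusted P = 0.16) or replicate 2 (-2.17, 0.098). At counts this low, the size of the IRF8 change is poorly fixed.

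The granulocytic repressor GFI1 and the progenitor factor MYB both fell. GFI1 was 174 and 176 CPM in scramble and 112 and 94.4 CPM with ATRA, a log2 change of -0.73 ± 0.20 (edgeR adjusted p = 0.059). The replicates of each group were close, yet the call was lost without scramble replicate 1 (-0.77, unadjusted P = 0.065) or replicate 2 (-0.73, 0.072). MYB was 285 and 434 CPM in scramble and 157 and 230 CPM with ATRA, a log2 change of -0.86 ± 0.30 (edgeR adjusted p = 0.11), which shrank to -0.53 without scramble replicate 2 (unadjusted P = 0.23). RUNX1 moved little, from 184 and 184 CPM to 145 and 146 CPM (log2 -0.30 ± 0.19, edgeR unadjusted P = 0.16), with replicates almost identical in both groups. At an adjusted p under 0.05, the calls of CEBPA, CEBPB, CEBPE and SPI1 remained, against 12.9% of all genes tested, and DESeq2 called GFI1 and MYB as well, among 2167 genes.

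The sum of promyelocyte marker RNA moved alongside these changes. The summed level of the 6 markers, nearly all MPO, was between 4452 and 5534 CPM in scramble and between 707 and 844 CPM in scramble+ATRA. Of the 4 markers tested, 3 had a negative log2 difference and 1 a positive one. CD33 was at 63.0 and 74.5 CPM in scramble and at 110 and 88.0 CPM in scramble+ATRA. The 8 monocyte and macrophage markers summed to between 6.48 and 7.97 CPM and between 29.2 and 34.7 CPM in these groups, with CD163 and FCGR3A at 0 in all 4 libraries. Lymphoid markers summed to between 40.2 and 52.0 CPM in scramble and between 55.2 and 74.3 CPM in scramble+ATRA, and erythroid and megakaryocyte markers to between 12.5 and 13.4 CPM and between 7.72 and 8.48 CPM. The part of such shifts in the members' changes was not tested.

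The same 7 genes were called, in the same directions, when ATRA was given to shKDM3B cells, where 42.2% of the 12756 genes tested were called (24.0% higher, 18.3% lower). The groups did not overlap for 8 of the 9 members, against 76.7% of all genes, and at an adjusted p under 0.05 the calls other than IRF8 remained, against 40.2% of all genes, so these counts stand on a high background. CEBPB went from 11.5 and 11.7 CPM to 44.1 and 46.5 CPM, a 4.05-fold rise (log2 2.02 ± 0.16, edgeR adjusted p = 7.6e-06). CEBPE went from 62.1 and 66.5 CPM to 259 and 286 CPM, a 4.39-fold rise (log2 2.13 ± 0.13, adjusted p = 1.4e-06), and SPI1 from 108 and 156 CPM to 224 and 259 CPM (log2 0.92 ± 0.18, adjusted p = 0.0022). None of these groups overlapped. Among the genes that fell, CEBPA went from 192 and 206 CPM to 108 and 107 CPM (log2 -0.83 ± 0.12, edgeR adjusted p = 3.9e-04) and GFI1 from 238 and 243 CPM to 121 and 136 CPM (-0.85 ± 0.12, 4.0e-04). MYB went from 651 and 547 CPM to 381 and 361 CPM (-0.64 ± 0.13, edgeR adjusted p = 0.0026), so that MYB in the treated knockdown cells was near its level in untreated scramble cells. Both shKDM3B+ATRA libraries belong to those with about 50% of pairs outside genes and both shKDM3B libraries do not, so this difference and the effect of ATRA cannot be told apart here. MYB dropped under 1.5-fold without shKDM3B replicate 1 (-0.56), and the change of IRF8, from 32 and 37 counts to 4 and 7 (log2 -1.21 ± 0.49, edgeR unadjusted P = 0.036, adjusted p = 0.067), was not called without shKDM3B replicate 1 (-0.997) or without shKDM3B+ATRA replicate 1 (-0.92) or replicate 2 (-1.64).

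CEBPD again differed from its family. It was 69.3 and 79.9 CPM in shKDM3B and 49.0 and 53.7 CPM in shKDM3B+ATRA, lower in both treated libraries (log2 -0.49 ± 0.14, edgeR adjusted p = 0.018) but under the 1.5-fold threshold. Without shKDM3B replicate 1 it was called, at -0.64. RUNX1 stayed between 168 and 199 CPM in all 4 libraries (log2 0.09 ± 0.13, edgeR unadjusted P = 0.49). The sum of promyelocyte markers, nearly all MPO, went from between 8554 and 9723 CPM to between 2323 and 3224 CPM. Of the 3 tested, 2 had a negative log2 difference and 1 a positive one, with CD33 at 64.7 and 77.5 CPM in shKDM3B and at 91.4 and 99.8 CPM in shKDM3B+ATRA. Monocyte and macrophage markers went from between 3.39 and 5.46 CPM to between 9.80 and 13.5 CPM. The part of these markers in the members' changes was not tested.

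**Figure D2:**
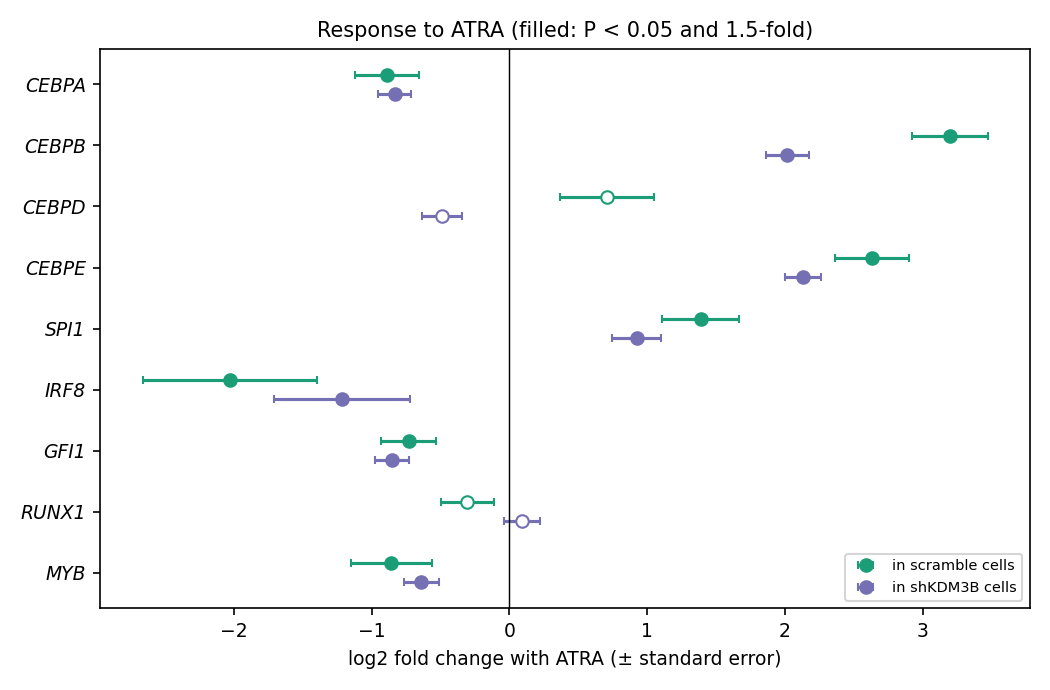
Log2 fold change with ATRA (horizontal axis, ± SE) for each gene in scramble cells (green) and in shKDM3B cells (purple), filled where called. CEBPB, CEBPE and SPI1 lie to the right in both and CEBPA, GFI1, IRF8 and MYB to the left, while CEBPD lies at 0.71 in scramble and at -0.49 in shKDM3B cells, neither of them called.

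The next question was what the loss of KDM3B did before any ATRA. In shKDM3B against scramble, MYB rose and IRF8 fell, which made 2 of the 9 members called, against 7.01% of the 13855 genes tested (3.48% higher, 3.53% lower). No member passed at an adjusted p under 0.05, where edgeR called 3 genes in all, or 0.0217%, against 1411 genes at an unadjusted P under 0.05. DESeq2 called 278 genes at that adjusted threshold, MYB alone among the members.

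MYB was 285 and 434 CPM in scramble and 651 and 547 CPM in shKDM3B. Both knockdown libraries were above both controls, and the log2 change was 0.74 ± 0.21 (edgeR unadjusted P = 0.0077, adjusted p = 0.25). Without scramble replicate 1 it was 0.47 and under 1.5-fold, and without scramble replicate 2 it was 1.08. IRF8 was at 75 and 70 counts in scramble and at 32 and 37 in shKDM3B, or 1.64 and 1.14 CPM in the latter. It fell by 1.28 on the log2 scale (SE 0.37, edgeR unadjusted P = 0.0077, adjusted p = 0.25), and the call was lost without shKDM3B replicate 2 (-1.03, unadjusted P = 0.053).

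CEBPB and GFI1 had tight replicates and differences short of 1.5-fold, although CEBPB was called with upper-quartile scaling (-0.59). CEBPB was 11.5 and 11.7 CPM in shKDM3B, below both scramble libraries (log2 -0.54 ± 0.20, edgeR unadjusted P = 0.026, adjusted p = 0.40), and GFI1 was 238 and 243 CPM, above both (log2 0.46 ± 0.14, unadjusted P = 0.010, adjusted p = 0.28). CEBPD was 69.3 and 79.9 CPM in shKDM3B, above 32.8 and 68.1 CPM in scramble (log2 0.56 ± 0.30, edgeR unadjusted P = 0.096). The value of CEBPD rested on scramble replicate 1: it was 0.13 without that library and 1.19, with a call, without scramble replicate 2, and it was also called without shKDM3B replicate 1 (0.66). CEBPA, CEBPE, SPI1 and RUNX1 overlapped between the groups, with log2 differences of 0.07 ± 0.18, 0.04 ± 0.20, -0.24 ± 0.21 and -0.01 ± 0.15. In all, the groups did not overlap for 5 of the 9 members, against 40.9% of genes. Promyelocyte markers summed to between 8554 and 9723 CPM in shKDM3B, above the range of scramble, and erythroid and megakaryocyte markers to between 2.72 and 5.15 CPM, below the 12.5 to 13.4 CPM of scramble. Monocyte and macrophage markers, at 3.39 to 5.46 CPM, and lymphoid markers, at 23.6 to 29.0 CPM, were below scramble too, and the markers' part in the members' changes was not tested.

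With ATRA present, the knockdown had a different pattern. In shKDM3B+ATRA against scramble+ATRA, CEBPB and CEBPD fell and MYB rose, so that 3 of the 8 members tested were called, against 6.79% of the 14281 genes tested (2.42% higher, 4.37% lower). IRF8, at 4 to 14 counts in each library, was not tested. The levels did not overlap for 8 of the 9 members, against 50.1% of all genes, and edgeR called 0 genes at an adjusted p under 0.05, against 1383 at an unadjusted P under 0.05. DESeq2 called 357 genes at that adjusted threshold, with CEBPB, CEBPD and MYB among them.

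CEBPB was 183 and 118 CPM in scramble+ATRA and 44.1 and 46.5 CPM in shKDM3B+ATRA. Both knockdown libraries were far below both controls, at 0.301 of the control level (log2 -1.73 ± 0.27, edgeR unadjusted P = 0.0039, adjusted p = 0.50), and the call held with any 1 of the 4 libraries left out, from -2.02 to -1.37. CEBPD was 84.1 and 77.3 CPM against 49.0 and 53.7 CPM (log2 -0.65 ± 0.13, unadjusted P = 0.0089, adjusted p = 0.50). Its call was lost in 3 of the 4 cases with a library left out, without scramble+ATRA replicate 1 (-0.58) and without shKDM3B+ATRA replicate 1 (-0.58) or replicate 2 (-0.71). MYB was 157 and 230 CPM against 381 and 361 CPM (log2 0.94 ± 0.23, edgeR unadjusted P = 0.017, adjusted p = 0.50), and its call was lost without shKDM3B+ATRA replicate 1 (0.91) or replicate 2 (0.99).

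CEBPE and SPI1 were lower in both knockdown libraries than in both controls but did not pass. CEBPE was 427 and 335 CPM against 259 and 286 CPM (log2 -0.48 ± 0.18, edgeR unadjusted P = 0.059), and SPI1 495 and 304 CPM against 224 and 259 CPM (log2 -0.72 ± 0.30, unadjusted P = 0.077). Both values depended on which scramble+ATRA library was used: without replicate 2 they were called, at -0.65 and -1.04, and without replicate 1 they were -0.29 and -0.32. RUNX1 was above both controls at 187 and 190 CPM (log2 0.38 ± 0.11, edgeR unadjusted P = 0.027, under 1.5-fold), GFI1 likewise at 121 and 136 CPM (0.32 ± 0.15, 0.11), and CEBPA differed by 0.11 ± 0.11.

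Cell type markers differed between these groups as well. Promyelocyte markers summed to between 2323 and 3224 CPM in shKDM3B+ATRA, against 707 to 844 CPM in scramble+ATRA. This sum was mostly MPO, while CTSG and CD33 were not higher in the knockdown (log2 -0.79 ± 0.47 and -0.05 ± 0.17), and the median over the 3 markers tested was -0.05. Monocyte and macrophage markers were at 9.80 to 13.5 CPM against 29.2 to 34.7 CPM, lymphoid markers at 28.6 to 39.5 CPM against 55.2 to 74.3 CPM, and erythroid and megakaryocyte markers at 2.11 to 3.62 CPM against 7.72 to 8.48 CPM. The part of these shifts in the changes of CEBPB, CEBPD and MYB was not tested.

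Scramble+ATRA replicate 1 is the only treated library with few pairs outside genes. Set against scramble+ATRA replicate 2 alone, which resembles the knockdown libraries in that respect, CEBPB was still called at -1.37, MYB was called at 0.70, and CEBPD was at -0.58, under 1.5-fold. In the same comparison GFI1 was at 0.45, RUNX1 at 0.38 and CEBPA at 0.06, none of them called. For the response of scramble cells, the comparison without scramble+ATRA replicate 2, in which all 3 libraries had few pairs outside genes, gave 3.45 for CEBPB, 2.77 for CEBPE, 1.67 for SPI1, -0.97 for CEBPA, -0.64 for GFI1, -3.16 for IRF8, -0.34 for RUNX1 and -1.18 for MYB.

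**Figure D3:**
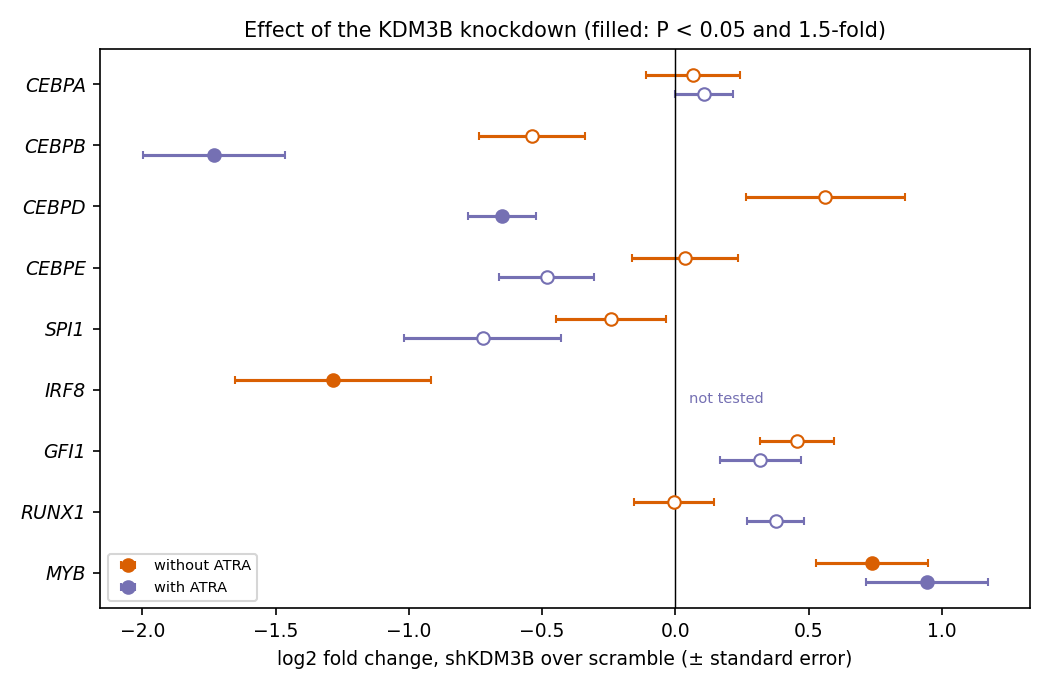
Log2 fold change of shKDM3B over scramble (horizontal axis, ± SE) for each gene without ATRA (orange) and with ATRA (purple), filled where called. CEBPB lies at -0.54 without and at -1.73 with ATRA, CEBPD at 0.56 and -0.65, and MYB at 0.74 and 0.94.

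Whether the ATRA response itself differed with KDM3B knockdown was tested as an interaction over the 8 libraries. The response of CEBPB was smaller in shKDM3B cells and that of CEBPD was lower, with a difference of 0.71 in scramble and of -0.49 in shKDM3B cells, which made 2 of the 9 members called, against 3.99% of the 13528 genes tested (1.27% higher, 2.72% lower). For CEBPB the response was smaller by a log2 difference of -1.20 ± 0.30 (edgeR unadjusted P = 0.0047, adjusted p = 1.00), and it was called with any 1 of the 8 libraries left out, from -1.49 to -0.84. The value of -0.84 was without scramble+ATRA replicate 1, the fit in which the treated libraries had alike shares of pairs outside genes. The part of that library difference in the responses was not tested. For CEBPD the difference was -1.22 ± 0.44 (edgeR unadjusted P = 0.026, adjusted p = 1.00), and it was not called without shKDM3B replicate 2 (-1.05) or without shKDM3B+ATRA replicate 1 (-1.12) or replicate 2 (-1.29). It was -0.79 without scramble replicate 1 and -1.84 without scramble replicate 2. In edgeR, 0 genes passed at an adjusted p under 0.05, against 607 at an unadjusted P under 0.05, and DESeq2 gave 25 genes and 0 members at the adjusted threshold. For CEBPE and SPI1 the differences were -0.52 ± 0.30 and -0.49 ± 0.39 (edgeR unadjusted P = 0.12 and 0.26). Each was called without scramble+ATRA replicate 2, at -0.69 and -0.80, but SPI1 was at -0.085 without scramble+ATRA replicate 1. CEBPE was at -0.82, with a call, without scramble replicate 2 and at -0.28 without scramble replicate 1. IRF8 differed by 0.77 ± 0.92. It was at 1.88, with a call, without scramble+ATRA replicate 2 and at 0.11 without scramble+ATRA replicate 1. RUNX1 (0.38 ± 0.19), MYB (0.20 ± 0.36), GFI1 (-0.14 ± 0.20) and CEBPA (0.04 ± 0.24) did not pass. The comparisons above share libraries, so their values stand side by side and are not independent of each other.

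The C/EBP proteins bind related sites as dimers, so their relative amounts are also of interest. As a share of the summed level per kb of CEBPA, CEBPB, CEBPD and CEBPE, CEBPA made up 56.6% and 37.0% in scramble and 43.2% and 42.3% in shKDM3B. With ATRA it was down to 8.31% and 11.2% in scramble and to 16.5% and 15.2% in shKDM3B. CEBPE took the largest share in all 4 treated libraries, between 53.4% and 59.7%, from between 19.6% and 25.1% in the untreated ones. CEBPB showed the clearest separation by KDM3B among the treated cells, at 22.3% and 18.1% in scramble+ATRA against 9.55% and 9.33% in shKDM3B+ATRA, after 6.13% and 5.48% in scramble and 3.65% and 3.41% in shKDM3B. CEBPD held between 15.1% and 17.3% in the treated libraries and between 17.7% and 34.1% in the untreated ones. The counts of MYB per count of SPI1 ordered the groups without overlap: 2.05 and 2.51 in scramble, 6.06 and 3.50 in shKDM3B, 0.318 and 0.756 in scramble+ATRA, and 1.70 and 1.39 in shKDM3B+ATRA.

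**Figure D4:**
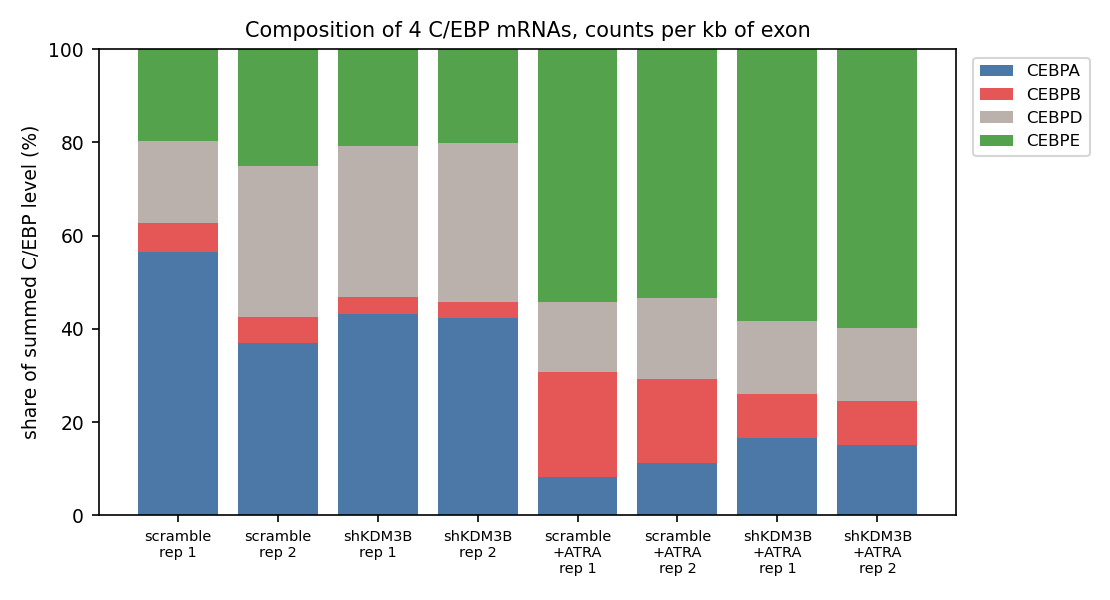
Share of each C/EBP gene in the summed level of the 4 genes (vertical axis, %, counts per kb of exon), 1 bar per library. CEBPE holds between 53.4% and 59.7% in the treated libraries, and CEBPB holds 22.3% and 18.1% in scramble+ATRA but 9.55% and 9.33% in shKDM3B+ATRA.

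Genes known to be driven by C/EBP proteins and PU.1 were counted in lists, here as a description beside the members. All 5 NADPH oxidase genes, which make the respiratory burst enzyme of phagocytes, rose with ATRA in scramble cells, with NCF1 at 6.11 ± 0.35 and CYBB at 2.59 ± 0.20 (log2 ± SE), and 4 of 5 rose in shKDM3B cells, against 15.0% and 24.0% of all genes tested. With KDM3B knocked down, 3 of the 5 were lower without ATRA and 5 of 5 with it, against 3.53% and 4.37% of all genes, among them CYBB (log2 -0.84 ± 0.14 and -1.03 ± 0.17). The median log2 difference of the list with ATRA was -1.03, against 0.03 over all genes tested. The 5 calls with ATRA fell to 1 without shKDM3B+ATRA replicate 1 and to 2 without replicate 2, and CYBB, at -0.89 without replicate 1, was among those lost there. The receptor and surface genes include ITGAM, which encodes CD11b, and CSF3R, the G-CSF receptor. With ATRA in scramble cells, ITGAM rose by 3.02 ± 0.26 and CSF3R went from 66.9 and 65.4 CPM to 275 and 242 CPM. CSF2RA had 9 and 14 counts in scramble and 56 and 16 in scramble+ATRA. It entered the test there through the treated libraries, so no share of the list is given for that comparison. Of the 9 genes tested, 4 rose with ATRA in shKDM3B cells, against 24.0% of all genes. In the knockdown 3 of 9 were lower without ATRA and 3 of 9 with it, against 3.53% and 4.37% of all genes. The latter were CSF3R (-0.89 ± 0.13), IL6R (-1.20 ± 0.25) and ITGAM (-0.82 ± 0.21), and the list's median was -0.82. Without shKDM3B+ATRA replicate 1 none of these 3 was called (-0.88, -1.22 and -0.80), and ITGAM was not called without scramble+ATRA replicate 1 either (-0.54). The count of 3 lower genes was 0 without shKDM3B+ATRA replicate 1, 1 without shKDM3B+ATRA replicate 2 and 5 without scramble+ATRA replicate 2. The calls of the 3 lower genes without ATRA were not all kept without shKDM3B replicate 1.

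Granule genes moved in both directions. Of the primary granule genes, products of promyelocytes, 3 of 4 tested fell with ATRA in scramble cells and 3 of 3 in shKDM3B cells, against 10.8% and 18.3% of all genes, CTSG at -5.04 and -6.16 and MPO at -2.81 and -1.69 on the log2 scale. MPO was the primary granule gene called in the knockdown, higher by 0.89 ± 0.15 without ATRA and 1.99 ± 0.24 with it. The list of secondary granule genes, mostly products of later stages, also held BPI, whose protein is stored in primary granules. Of its 10 genes, 6 were tested for ATRA in scramble cells and 4 in shKDM3B cells, and those that rose entered the test only through the treated libraries, where they were high, so no share of the list is given. BPI had 4 and 5 counts in scramble and 940 and 606 in scramble+ATRA, MMP8 had 3 and 4 against 519 and 528, and CAMP had 5 and 4 against 31 and 21. In shKDM3B cells BPI went from 2 and 10 counts to 356 and 373 and MMP8 from 0 and 2 counts to 84 and 100. MMP9 (-4.80 ± 0.26 in scramble and -3.86 ± 0.31 in shKDM3B cells) and CHI3L1 (-2.22 ± 0.36 and -1.82 ± 0.30), the latter named after its values were seen, fell in both. LTF, LCN2, CEACAM8 and OLFM4 were not tested in any comparison for want of counts. In shKDM3B+ATRA against scramble+ATRA, MMP8 (-2.08 ± 0.30), CAMP (-2.02 ± 0.49) and BPI (-0.59 ± 0.12) were lower. Of these, MMP8 was called with any 1 of the 4 libraries left out (-2.35 to -1.75), while CAMP and BPI were not called without either shKDM3B+ATRA library and BPI also not without scramble+ATRA replicate 1 (-0.56).

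Of 7 genes known as MYB targets, 5 had enough counts to test in the untreated knockdown, and 3 of the 5 were higher in shKDM3B cells, against 3.48% of all genes tested, with a median log2 difference of 0.78 over the 5. These were the survival gene BCL2 (log2 1.08 ± 0.28), the cyclin gene CCNE1 (0.78 ± 0.20) and the kinase gene CDK6 (0.90 ± 0.32). CDK6 rested on shKDM3B replicate 1: it was 57.7 and 28.3 CPM in shKDM3B against at most 25.9 CPM in scramble, and the log2 difference was 0.31, with no call, without that library. CCNE1 was not called without scramble replicate 1 (0.56), and BCL2 was 0.70 without that library and 1.62 without scramble replicate 2, called in both. KIT, which was not tested, had 15 and 6 counts in scramble and 1 and 3 in shKDM3B, and without scramble replicate 2 the list gave 3 higher and 1 lower of 6 tested. In the knockdown 0 of 5 were called with ATRA, where 2.42% of all genes were higher and 4.37% lower (edgeR, 0 at an unadjusted P under 0.05, and 0 called by DESeq2). With ATRA 1 of 5 rose and 1 fell in scramble cells, against 15.0% and 10.8% of all genes, where BCL2 fell (-3.25 ± 0.40) and ADA rose (2.05 ± 0.48). In shKDM3B cells ADA rose, a call that rested on shKDM3B+ATRA replicate 2 (1.36 ± 0.59, and -0.18 without it), and 3 fell, against 24.0% and 18.3% of all genes, BCL2 (-3.89 ± 0.18), CCNE1 (-0.70 ± 0.18) and CDK6 (-0.94 ± 0.30), of which CDK6 was not called without shKDM3B replicate 1 (-0.40) nor CCNE1 without shKDM3B+ATRA replicate 2 (-0.50). No adjusted p of these list genes was under 0.05 in either knockdown comparison.

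**Figure D5:**
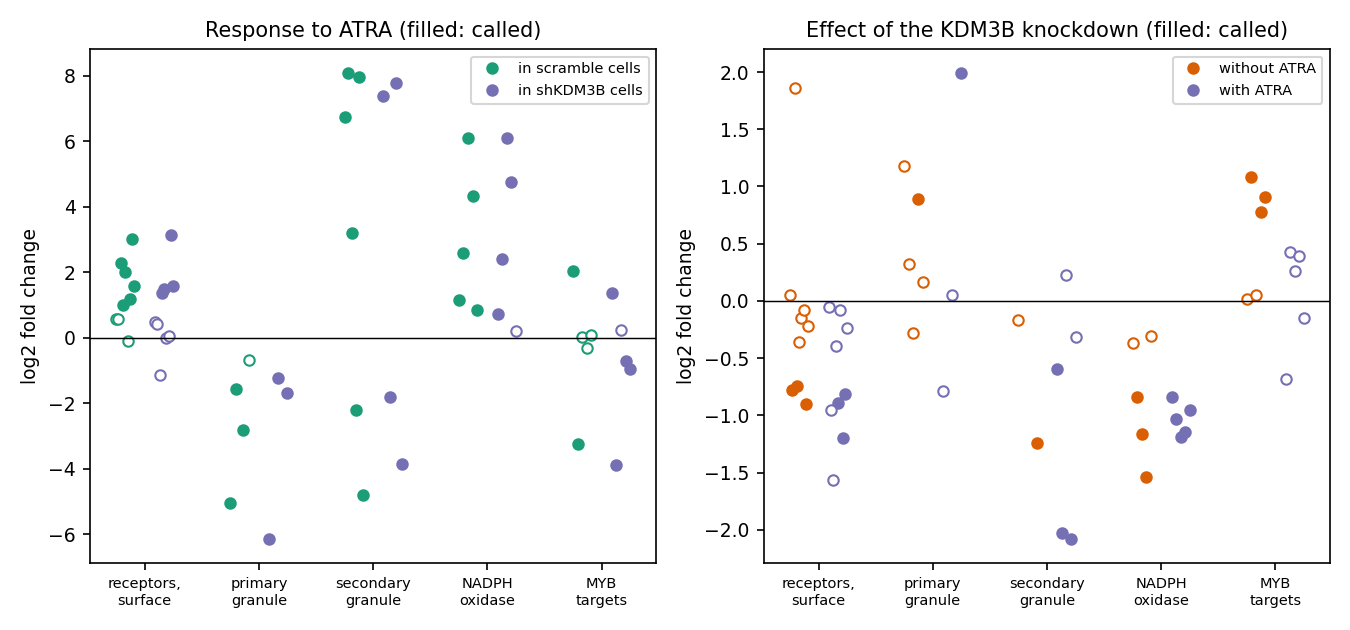
Log2 fold changes of the tested genes of 5 lists with ATRA (left, scramble green, shKDM3B purple) and with KDM3B knockdown (right, without ATRA orange, with ATRA purple), 1 point per gene, filled where called. All NADPH oxidase points lie above 0 on the left and below 0 on the right, and MPO is the highest point of the right panel.

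Close relatives of the members gave further contrasts. Of the other C/EBP genes, DDIT3, whose product CHOP marks the stress response, rose with ATRA in scramble (1.41 ± 0.27) and in shKDM3B cells (1.59 ± 0.19), and CEBPG and CEBPZ were called nowhere. Among 21 relatives and partners, GFI1B, the paralog of GFI1, rose with ATRA by 5.10 ± 0.29 and 5.72 ± 0.34 where GFI1 fell. IRF1 rose by 2.73 ± 0.29 and 3.48 ± 0.16 and IRF2 by 1.51 ± 0.27 and 1.46 ± 0.16 where IRF8 fell. In the knockdown, IRF1 and MYBL1 were lower without ATRA (-0.90 ± 0.26 and -0.71 ± 0.27), and the ETS factors ETS1 and ETS2 were lower with ATRA (-1.28 ± 0.34 and -0.67 ± 0.22). In the test of the difference in ATRA response, 2 of the 16 relatives tested were called, against 3.99% of all genes, ETS1 at -1.74 ± 0.38 and RUNX3 at 0.95 ± 0.26. These 2 calls and that of ETS1 in the knockdown with ATRA held with any 1 library left out. Without ATRA, MYBL1 was called in none of the 4 such fits and IRF1 was not called without scramble replicate 1 (-0.53), and with ATRA ETS2 was not called without scramble+ATRA replicate 1 (-0.50) or either shKDM3B+ATRA library.

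Of 19 other haematopoietic regulators, 17 were tested for ATRA in scramble cells and 18 in shKDM3B cells. Some had enough counts only in the group where they were high, so no share of the list is given. In scramble cells ID1 (5.99 ± 0.63), an inhibitor of helix-loop-helix factors, rose, from 16 and 4 counts to 569 and 265. KLF4 (-4.31 ± 0.50) fell, from 114 and 160 counts to 4 and 4. In shKDM3B cells ID1 (5.77 ± 0.37) and ID2 (3.53 ± 0.26) rose and GATA2 (-2.37 ± 0.20) fell. In the knockdown, LMO2, a partner of stem cell factors, was higher without ATRA (1.04 ± 0.16) and with it (0.80 ± 0.17). STAT3 was higher without ATRA (0.69 ± 0.17). ID1 (-1.37 ± 0.28) and NFE2 (-0.67 ± 0.14) were lower in the knockdown in the presence of ATRA. LMO2, ID1 and NFE2 with ATRA were not called without either shKDM3B+ATRA library, and STAT3 was not called without scramble replicate 1 (0.52). Set against scramble+ATRA replicate 2 alone, whose share of pairs outside genes was like that of the knockdown libraries, the log2 differences were -1.10 for CYBB, -0.79 for CSF3R, -0.87 for IL6R, -2.03 for CAMP, -2.35 for MMP8, 2.13 for MPO, -1.23 for ETS1, -1.08 for ID1, -0.64 for NFE2 and 0.67 for LMO2, all called. ITGAM, BPI and ETS2, named above as lower in the knockdown with ATRA, were not called in that fit. Of the other cell type markers, GATA1 and ITGA2B, the erythroid and megakaryocytic genes with enough counts to test, were lower in untreated knockdown cells (unadjusted P = 4.4e-04 and 0.0028 in edgeR).

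Over the 8 libraries, some genes followed the members closely, given here as Pearson's r of log2 levels among 13528 genes, a description in which the 4 groups dominate. CEBPB was tracked best by CSF3R (r = 0.993), CEBPE by CEACAM1 (0.996) and SPI1 by SASH3 (0.995). GFI1 was tracked best by KDM3A (0.990), the paralog of the silenced gene, and MYB by the chromatin protein gene HMGA2 (0.990). CEBPA ran with RPPH1 (0.992) and IRF8 with SMARCD3 (0.984). CEBPD and RUNX1 had no match of that closeness, at most 0.944 for BORCS5 and 0.931 for SPG20-AS1. Between members, CEBPA and CEBPE ran against each other (-0.984), and CEBPB ran with SPI1 (0.956) and against MYB (-0.872).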

How the data were processed

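The 8 libraries were grouped by their labels. Per the labels' processing notes and the study's methods, the authors aligned reads to hg38 with HISAT2 and counted read pairs on genes with HTSeq. The deposited values are raw counts per gene, without normalization. The untreated files list 56470 names and the treated ones 56609, and the 5 summary lines of HTSeq were kept out of library sizes. Each pair of groups was fitted over all genes with edgeR 4.0.16 in R 4.3.3 (filterByExpr, TMM scaling, quasi-likelihood F test). The SE is the log2 fold change divided by the square root of F. A gene was called at an unadjusted P under 0.05 and a 1.5-fold change, the study's thresholds, and adjusted p-values are Benjamini-Hochberg over all genes of the fit. The difference in ATRA response was an interaction over the 8 libraries and the 37526 shared names, which hold 96.4% to 99.1% of the counts. Levels are TMM-scaled CPM on the same names. The reads carry no molecular identifiers. With 2 libraries a group, an exact permutation test cannot go below 0.333. The scripts were tested on simulated data. Named genes are all members, KDM3B, up to 3 called genes with the smallest P per list and comparison, and the genes most like a member, and list and marker genes named for not being called, tested or detected were chosen after their values were seen. Some genes this rule names are not reported here. The members and lists were chosen with earlier results of these data known. The genes most like a member were ranked by Pearson's r of log2 CPM with a prior count of 2. Alternatives were other scalings and filters, DESeq2 1.42.0, a replicate block, all 8 libraries in one fit, adjusted p-values and each library left out, the last also for list genes, added after seeing the data. Annotation joins ran in Python 3.11.15.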

Additional observations from a re-analysis of the deposited data

Results flagged for a closer look

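For 2 members the response to ATRA differed between shKDM3B and scramble cells by the interaction test. For CEBPB the log2 difference was -1.20 (SE 0.30, edgeR unadjusted P = 0.0047, adjusted p = 1.00), with a rise in both kinds of cells that was smaller in shKDM3B. It was -0.84 without scramble+ATRA replicate 1, the only treated library with few pairs outside genes. For CEBPD the log2 difference was -1.22 (SE 0.44, edgeR unadjusted P = 0.026, adjusted p = 1.00), with both treated libraries above both untreated ones in scramble cells and below them in shKDM3B cells. With 1 library left out it ran from -1.84 to -0.79. Its call was lost without shKDM3B replicate 2 and without either shKDM3B+ATRA library. Of all genes tested, 3.99% were called in the same way.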

How the results depend on the processing

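With 2 libraries a group, 1 library often decided a call; a group left with 1 library took its spread from the others. The count of members called ranged, with 1 library left out, from 1 to 3 for shKDM3B against scramble (2 in the fit reported), from 1 to 5 for shKDM3B+ATRA against scramble+ATRA (3), from 3 to 8 for scramble+ATRA against scramble (7), from 6 to 7 for shKDM3B+ATRA against shKDM3B (7) and from 1 to 5 for the difference in response (2). At an adjusted p under 0.05 these counts were 0, 0 and 0 for both knockdown comparisons and the difference in response, and 4 for scramble+ATRA against scramble. With all 8 libraries in one fit, 1 member was called for shKDM3B against scramble, since IRF8 was lost (-1.27), and CEBPD was lost and SPI1 gained (-0.73) with ATRA. DESeq2 and the fit without a filter also called SPI1 there (-0.72 and -0.74), and IRF8 was not called for ATRA in shKDM3B cells by DESeq2 (-1.25) or with all 8 libraries in one fit (-1.28). CEBPB was called in shKDM3B against scramble with upper-quartile scaling (-0.59), and CEBPD in scramble+ATRA against scramble without a filter (0.66). Values near 0 changed sign: CEBPE in shKDM3B against scramble was -0.014 with upper-quartile scaling, and with 1 library left out the ranges were -0.13 to 0.30 for CEBPA, -0.21 to 0.33 for CEBPE, -0.55 to 0.0031 for SPI1 and -0.14 to 0.11 for RUNX1 in that comparison, -0.075 to 0.22 for RUNX1 with ATRA in shKDM3B cells, and -0.20 to 0.23 for CEBPA and -0.14 to 0.49 for MYB in the difference in response. The cause was not tested. Over single genes and comparisons, 339 of the values under other settings kept their side of the threshold, 8 gained a call, 4 lost one and 1 changed sign, and with 1 library left out 167 kept it, 12 gained, 21 lost and 12 changed sign.

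Counts over all genes moved too. They were 971, 969, 3213 and 540 for the comparisons of shKDM3B with scramble, of shKDM3B+ATRA with scramble+ATRA, of scramble+ATRA with scramble and of the responses. At an adjusted p under 0.05 they were 3, 0, 1604 and 0. With 1 library left out they ranged from 943 to 1650 (without scramble replicate 2), from 134 (without shKDM3B+ATRA replicate 1) to 5360 (without scramble+ATRA replicate 2), from 1462 (without scramble replicate 2) to 5142 (without scramble+ATRA replicate 1) and from 285 (without shKDM3B+ATRA replicate 1) to 2432 (without scramble+ATRA replicate 2), and without a filter the last was 941. With library size alone, the difference in response had 234 genes higher and 279 lower, against 172 and 368 with TMM.

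The replicate numbers mark no stated shared origin, and the deviations of same-numbered libraries correlated at 0.44, 0.04, -0.10 and 0.22 in the 4 pairwise comparisons, so the libraries were not treated as paired. A replicate block added CEBPD to the calls of shKDM3B against scramble (0.64) and of scramble+ATRA against scramble (0.80), for 3 and 8 members, and lowered the count of all genes for shKDM3B+ATRA against scramble+ATRA to 525. The crossed pairing, chosen after seeing the data, also gave 8 members for scramble+ATRA against scramble.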
